A study of Mus musculus with 10 samples.

Results

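The genes described here build and control the mitotic spindle and hold, condense and separate chromosomes in a mouse embryonic stem (ES) cell line grown in 5 culture conditions. They were taken by symbol: kinesins (Kif), centromere proteins (Cenp), Aurora and Polo-like kinases (Aurk, Plk), checkpoint proteins (Bub, Mad1l, Mad2l, Ttk), Cdc20 to Cdc29, Cdca, condensin and SMC subunits, cohesin subunits, Spc2, Nuf2, securin (Pttg1), separase (Espl1), anaphase-promoting complex subunits (Anapc) and A- and B-type cyclins. Of 86 lines with such a symbol, 81 reached 1 TPM (a share of all transcripts, corrected for transcript length) in at least 2 of the 10 libraries, out of 14578 lines that did so in the whole table. Ccna1, Kif6, Kif9, Kif12 and Kif19a did not, and the highest value of any of them in any library was 1.17 TPM, for Ccna1. A further 44 matching symbols, Ccnb1, Ttk and Espl1 among them, lie in rows of the table whose values are offset from the symbols and were not analysed here. The name of the set covers most but not all of it: 12 of the 81 are kinesins known mainly for transport along microtubules, cilia or signalling (for example Kif1a, Kif5b and Kif26a), and the other 69 are called division genes below. That label is loose, since it takes in genes known partly or mainly for other roles: Plk2, Plk3, Plk5, Cdca7l, Mad2l2 and Kif24.

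The line carries the strain label C57BL6X129S6F1, and each condition had 2 libraries made from total RNA. LCDM was N2B27 medium with 1000 IU mLIF, 3 µM Chir99021 (a GSK3 inhibitor), 2 µM Dim and 2 µM Mih, with feeder cells. A2iL was N2B27 with 1000 IU mLIF, 3 µM Chir99021 and 1.5 µM CGP77675 (a Src inhibitor), with feeder cells. The 2iL-F condition was N2B27 with 1000 IU mLIF, 3 µM Chir99021 and 1 µM PD0325901 (a MEK inhibitor), labelled as being without feeder cells. The 2iL condition had those same components and is labelled as being with feeder cells. SL was KO-DMEM with 15% FBS and 1000 IU mLIF, with feeder cells. LIF, which keeps ES cells undifferentiated, was therefore shared by all 5, and Chir99021 by all but SL. All libraries come from 1 line, and no source states whether the 2 libraries of a condition are from different cultures. The p-values therefore reflect library-to-library spread only, which could be purely technical.

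A cell enters mitosis when cyclin-dependent kinase bound to an A- or B-type cyclin is switched on by a Cdc25 phosphatase. Aurora and Polo-like kinases and kinesins then build the spindle, whose microtubules attach to the kinetochore assembled on each centromere, while cohesin holds the sister chromatids together and condensin compacts them. Unattached kinetochores signal through Bub and Mad proteins to keep Cdc20 from activating the anaphase-promoting complex, which otherwise marks securin and B-type cyclin for destruction and so lets the sisters part. Mouse ES cells are known for a short cycle with brief gap phases, in which many of these genes are abundant.

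The summed TPM of 32 fibroblast transcripts, which feeder cells carry, went against the labels on feeders. It was 1259 to 1297 in LCDM, 3292 to 3367 in A2iL, 5159 to 5357 in 2iL-F, 898 to 950 in 2iL and 5824 to 6132 in SL. All 32 had at least 1 TPM in both libraries of LCDM, A2iL, 2iL-F and SL, against 10 of 32 in 2iL, where Dcn, Lox, Postn, Bgn and Acta2 were listed at 0 in both. Below, "2iL" and "2iL-F" mean the libraries that carry those labels. The 10 ES cell transcripts examined (Pou5f1, Nanog, Esrrb, Klf4, Klf5, Tbx3, Tfcp2l1, Sall4, Gdf3 and Tdgf1) all had at least 1 TPM in every library, with sums of 3620 to 3664 TPM in LCDM, 2848 to 2859 in A2iL, 3519 to 3595 in 2iL-F, 3319 to 3528 in 2iL and 2025 to 2106 in SL. In such bulk RNA, fewer cells of a type and less RNA per cell cannot be told apart. Of the 81 genes, 79 to 81 per condition differed by less than 1.5-fold between its 2 libraries. The median absolute log2 difference between the 2 libraries was 0.133 in 2iL and 0.0499 to 0.0652 in the other conditions.

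Promoters of cell division genes are known for 2 short motifs, the cell cycle genes homology region (CHR, spelled TTTGAA here) and the CCAAT box, bound by NF-Y. Windows from 250 bases before to 50 after the gene start were available for 73 of the 81 genes in RefSeq (GRCm38.p6) and were searched on both strands; neither motif contains the other. A CHR lay in 33.8% of 71 windows of division genes and in 17.9% of 32851 windows of all genes. A CCAAT box lay in 52.1% of the division windows and in 37.4% of all windows, and both motifs lay in 23.9% and 6.95%. By role the shares varied: 60% of 10 windows of mitotic kinesins held a CHR and 85.7% of 14 windows of 11 centromere genes a CCAAT box. Of 7 windows of checkpoint genes 0% held a CHR and 28.6% a CCAAT box, of 8 windows of condensin and Smc5/6 genes 25% held a CCAAT box, and of 14 windows of the anaphase-promoting complex group 21.4% held a CHR and 35.7% a CCAAT box. A gene with several start sites gives several windows. The windows of genes that move differently across the conditions are shown, on their own strand from 5′ to 3′, with CHR and CCAAT matches on either strand in capitals. Ccnb2 (chr9:70421505-70421804, minus strand) holds 2 CHR and 3 CCAAT matches and was highest in LCDM and 2iL. Cdca3 (chr6:124829926-124830225, plus strand) holds 1 and 3 and was highest in 2iL. Cdc20 (chr4:118437294-118437593, minus strand) holds 1 and 2 and was highest in SL. Pttg1 (chr11:43425932-43426231, minus strand) and Plk2 (chr13:110394794-110395093, plus strand) hold neither, and were highest in LCDM and in SL. RefSeq and GENCODE starts can differ. The Pttg1 window lies wholly inside the GENCODE gene (43420250 to 43426251), and so does that of Cdca3 (124829547 to 124833701). For these 2 genes the sequence before the GENCODE start was not searched. Windows of other genes, Cdca7l, Ncapd3, Mad2l2 and Kif2c among them, also lie inside the GENCODE gene. The shares above therefore include windows that do not reach the sequence before that start.
Ccnb2: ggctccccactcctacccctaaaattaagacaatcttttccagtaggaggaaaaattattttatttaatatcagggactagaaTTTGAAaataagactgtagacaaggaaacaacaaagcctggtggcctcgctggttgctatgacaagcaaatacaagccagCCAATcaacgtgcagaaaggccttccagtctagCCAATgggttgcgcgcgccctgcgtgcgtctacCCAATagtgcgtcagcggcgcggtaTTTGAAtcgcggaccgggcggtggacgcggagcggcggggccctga
Cdca3: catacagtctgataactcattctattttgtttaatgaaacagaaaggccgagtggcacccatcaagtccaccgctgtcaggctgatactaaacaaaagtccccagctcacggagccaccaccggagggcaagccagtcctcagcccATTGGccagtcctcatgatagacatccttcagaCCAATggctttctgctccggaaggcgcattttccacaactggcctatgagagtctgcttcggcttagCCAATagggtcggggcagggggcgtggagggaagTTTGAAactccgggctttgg
Cdc20: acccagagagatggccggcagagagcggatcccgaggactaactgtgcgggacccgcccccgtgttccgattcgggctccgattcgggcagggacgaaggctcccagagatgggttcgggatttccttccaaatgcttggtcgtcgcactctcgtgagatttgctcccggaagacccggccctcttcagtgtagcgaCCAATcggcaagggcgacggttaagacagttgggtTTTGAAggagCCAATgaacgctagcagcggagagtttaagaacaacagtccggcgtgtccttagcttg
Pttg1: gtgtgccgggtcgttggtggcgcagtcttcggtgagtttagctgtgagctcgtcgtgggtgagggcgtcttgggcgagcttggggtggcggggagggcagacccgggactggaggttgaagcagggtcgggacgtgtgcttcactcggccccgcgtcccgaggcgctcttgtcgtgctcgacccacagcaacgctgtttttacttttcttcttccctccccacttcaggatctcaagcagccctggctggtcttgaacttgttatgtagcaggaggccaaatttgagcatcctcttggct
Plk2: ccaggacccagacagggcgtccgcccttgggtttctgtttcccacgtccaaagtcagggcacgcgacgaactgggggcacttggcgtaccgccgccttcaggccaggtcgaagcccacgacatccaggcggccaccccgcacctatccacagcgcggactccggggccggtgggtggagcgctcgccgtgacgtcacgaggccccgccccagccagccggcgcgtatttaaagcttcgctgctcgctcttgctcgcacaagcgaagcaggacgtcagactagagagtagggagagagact
The windows without capitals show that these letters are absent there and nothing more.

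Summed over the set, division genes were most abundant in LCDM and least abundant in A2iL. Their summed level was 3745 ± 39.8 TPM in LCDM, 2799 ± 26.4 in A2iL, 2960 ± 22.5 in 2iL-F, 3282 ± 122 in 2iL and 3138 ± 11.5 in SL (SD, n = 2 each). LCDM had the highest mean for 36 of the 69 and the lowest for 1, while A2iL had the highest for 0 and the lowest for 18. In 2iL-F the mean was the lowest of the 5 for 22 of them. The 12 other kinesins were ordered differently, with sums of 161 ± 3.21 TPM in LCDM, 182 ± 2.56 in A2iL, 173 ± 4.40 in 2iL-F, 128 ± 9.01 in 2iL and 218 ± 5.70 in SL (SD, n = 2 each). Mean levels over the 10 libraries ran from 0.633 TPM for Kif17 through a median of 22.4 TPM to 328 TPM for Cdc20. By a moderated F test over the 5 conditions (limma, adjusted p threshold 0.05), 73 of the 81 differed among conditions; 90.1% of all lines tested did, so the share is near the background.

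**Figure D1:**
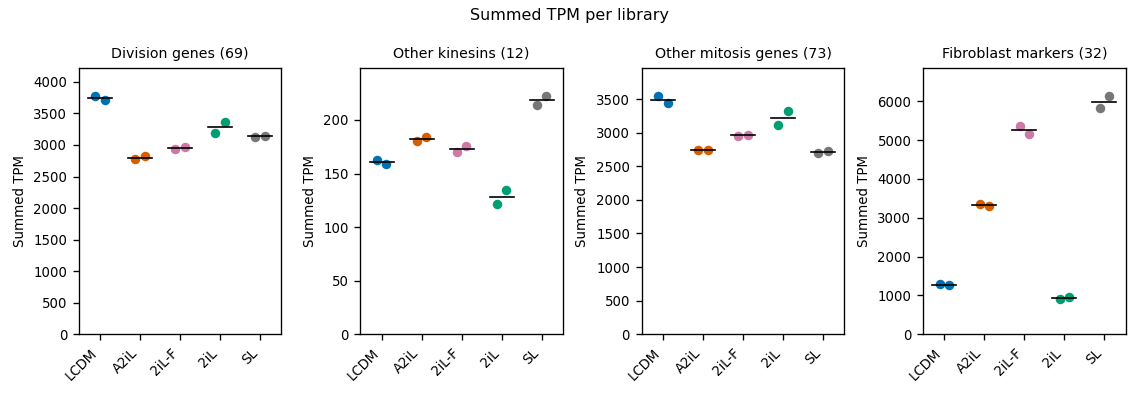
Summed TPM (vertical axes, from 0) in each library (points) and condition mean (horizontal lines) for the 69 division genes, the 12 other kinesins, 73 other mitosis genes and 32 fibroblast markers, in LCDM, A2iL, 2iL-F, 2iL and SL. Division genes sum highest in LCDM, at 3745 TPM on average, and the other kinesins in SL, at 218 TPM.

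**Figure D2:**
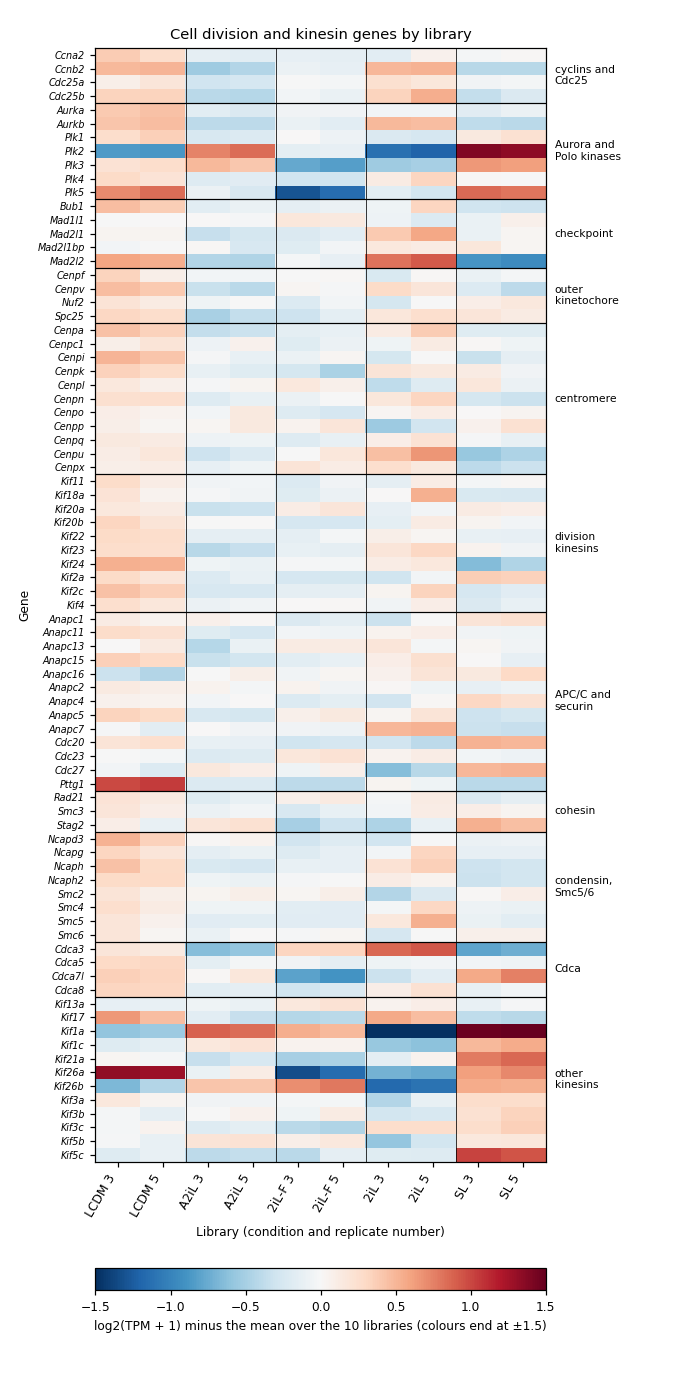
Each row is 1 of the 81 genes, grouped by role, and each column 1 of the 10 libraries; colour gives log2(TPM + 1) minus the gene's mean over the 10 libraries, with the scale ending at 1.5 either way. LCDM libraries are above the mean for most division genes, and SL libraries for most of the other kinesins.

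Against SL, more of the 81 genes were higher in LCDM than lower. LCDM had 41 higher and 15 lower (limma, Benjamini-Hochberg adjusted p threshold 0.05), beside 32.2% of all lines higher and 33.7% lower (65.9% in all), and a median log2(TPM + 1) change of 0.21 beside -0.00 for all lines. The 2iL libraries had 34 higher and 25 lower, beside 36.7% and 40.9% (77.7% in all), with medians of 0.08 and -0.04. In 2iL-F 18 were higher and 28 lower, beside 28.1% and 37.3% (65.4% in all), with medians of -0.04 and -0.08. In A2iL 8 were higher and 25 lower, beside 21.9% and 31.9% (53.8% in all), with medians of -0.07 and -0.07. Of the 69 division genes, 39 rose and 7 fell in LCDM, 32 and 16 in 2iL, 17 and 20 in 2iL-F, and 8 and 17 in A2iL. Of the 12 other kinesins, 2 rose and 8 fell in LCDM, 2 and 9 in 2iL, 1 and 8 in 2iL-F, and 0 and 8 in A2iL. The 4 comparisons share the SL libraries, so their counts are not independent of each other. The split moves with the scaling: median-of-ratios scaling gave 13 higher and 19 lower in A2iL (40.6% of calls higher, against 24.2%) and 25 and 21 in 2iL-F (54.3%, against 39.1%), and quantile normalization gave 12 and 22 in A2iL (35.3%). With the 2iL and 2iL-F libraries left out of the fit, an alternative chosen after seeing the data, 44 were higher and 17 lower in LCDM, and 9 and 30 in A2iL. Of the fibroblast transcripts, 0 rose and 31 fell in LCDM, 0 and 32 in 2iL, 16 and 15 in 2iL-F, and 7 and 17 in A2iL. Their part in the changes of the 81 genes was not tested.

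**Figure D3:**
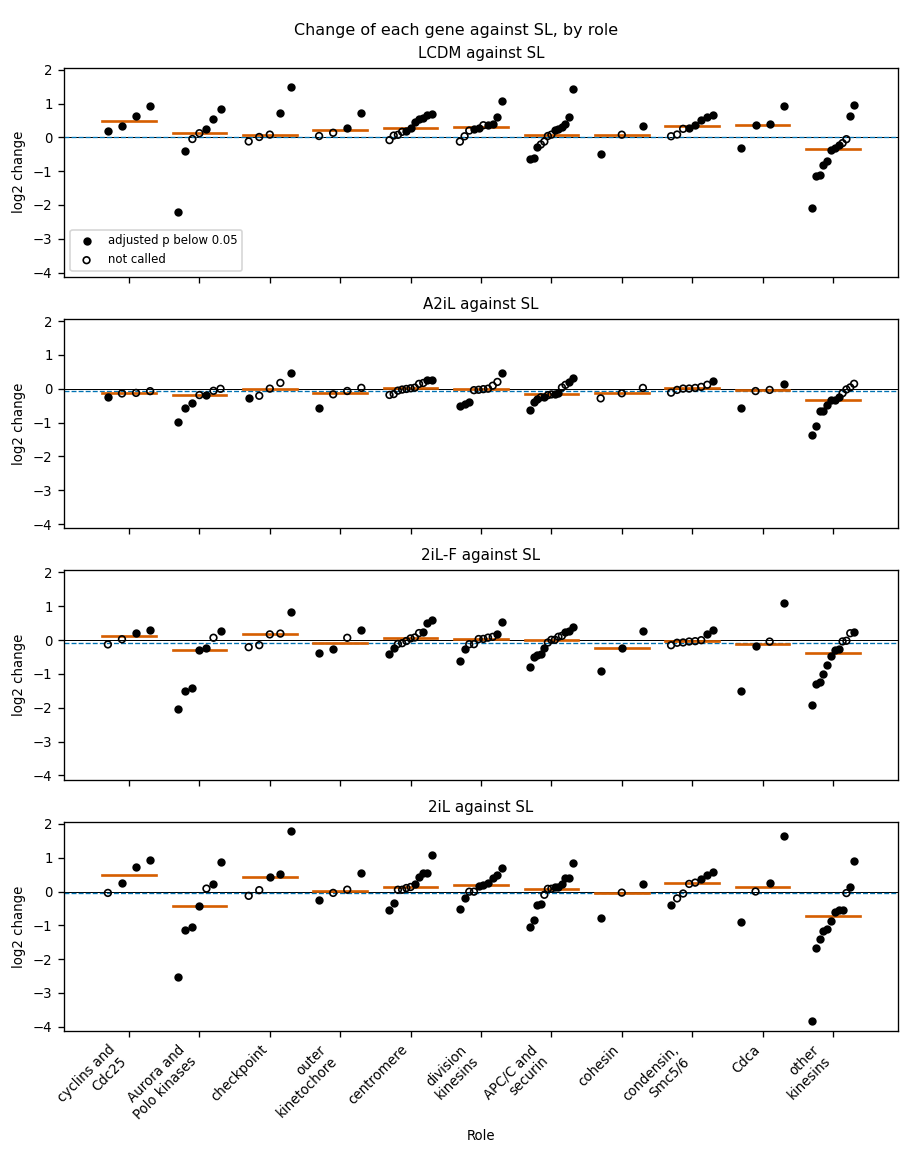
Log2(TPM + 1) change of each of the 81 genes (points), by role, against SL in LCDM, A2iL, 2iL-F and 2iL; filled points have an adjusted p below 0.05 and open points do not. Orange marks the median of a role and the dashed blue line the median of all lines tested: in LCDM against SL the median of the 81 genes was 0.21 and that of all lines -0.00.

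Among the cyclins and Cdc25 phosphatases, all 4 genes rose in LCDM against SL and 3 rose in 2iL, beside 32.2% and 36.7% of all lines. Ccnb2 (chromosome 9, 70407692 to 70421547; all gene positions are mm10), the B-type cyclin whose promoter is printed above, had 252 and 258 TPM in LCDM, 124 and 133 in A2iL, 169 and 165 in 2iL-F, 255 and 258 in 2iL, and 135 and 134 in SL. LCDM and 2iL stood together above 2iL-F, which stood above A2iL and SL, with no overlap between these 3 levels. Its log2 change against SL was 0.91 ± 0.04 (SE, adjusted p = 3.79e-07) in LCDM and 0.92 ± 0.04 (adjusted p = 1.47e-07) in 2iL. In 2iL-F it was 0.31 ± 0.04 (adjusted p = 0.000282), and in A2iL -0.07 ± 0.04 (adjusted p = 0.2). Cdc25b (chromosome 2, 131186949 to 131198497), a phosphatase that starts mitotic entry, had 17.8 and 17.9 TPM in LCDM, 10.3 and 10.1 in A2iL, 13.6 and 12.98 in 2iL-F, 17.8 and 20.8 in 2iL, and 10.6 and 11.9 in SL. Its order was that of Ccnb2, with log2 changes of 0.62 ± 0.08 (adjusted p = 0.000171) in LCDM and 0.73 ± 0.08 (adjusted p = 4.1e-05) in 2iL. Ccna2 (chromosome 3, 36564865 to 36572150), the cyclin of S phase and early mitosis, was raised in LCDM alone by this test, at 118 and 109 TPM in LCDM, 82.5 and 80.9 in A2iL, 82.6 and 82.2 in 2iL-F, 81.1 and 94.4 in 2iL, and 88.6 and 91.6 in SL (0.33 ± 0.07 in LCDM against SL, adjusted p = 0.00348). Cdc25a, the phosphatase of the S phase and mitotic kinases, had 42.2 and 45.3 TPM in LCDM, 32.1 and 33.3 in A2iL, 39.7 and 38.9 in 2iL-F, 47.3 and 44.9 in 2iL, and 38.3 and 39.0 in SL. Its call in LCDM (0.17 ± 0.05, adjusted p = 0.0168) is lost without SL replicate 3 (adjusted p = 0.0786) or without LCDM replicate 5 (adjusted p = 0.126).

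The Aurora and Polo-like kinases did not move as 1 group. Aurkb (chromosome 11, 69045647 to 69051664), the kinase of the chromosomal passenger complex, which corrects wrong attachments, had 82.1 and 85.2 TPM in LCDM, 46.6 and 46.6 in A2iL, 57.2 and 54.8 in 2iL-F, 86.1 and 84.7 in 2iL, and 47.0 and 46.3 in SL. It thus had the 3 levels seen for Ccnb2, with log2 changes against SL of 0.83 ± 0.04 (adjusted p = 6.62e-07) in LCDM and 0.86 ± 0.04 (adjusted p = 2.3e-07) in 2iL. Aurka (chromosome 2, 172356190 to 172370535), the kinase of centrosome maturation, had 144 and 148 TPM in LCDM, 97.5 and 93.8 in A2iL, 105 and 105 in 2iL-F, 106 and 106 in 2iL, and 97.2 and 102 in SL. Both LCDM libraries were above all 8 others, by 0.54 ± 0.04 against SL (adjusted p = 8.38e-06), while 2iL differed from SL by 0.09 ± 0.04 (adjusted p = 0.098). Plk1 (chromosome 7, 122159439 to 122169873), the Polo-like kinase of mitosis, had 194 and 208 TPM in LCDM, 136 and 139.6 in A2iL, 162 and 153 in 2iL-F, 139 and 135 in 2iL, and 178 and 189.9 in SL. Unlike Aurkb it fell in 2iL, by 0.43 ± 0.05 on the log2 scale (adjusted p = 8.92e-05), and in A2iL, by 0.41 ± 0.05 (adjusted p = 0.000273). Plk1 also fell in 2iL-F, by 0.23 ± 0.05 (adjusted p = 0.00533), a call lost with median-of-ratios scaling.

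The largest falls among the kinases were in Polo-like kinases outside the mitotic core. Plk2 (chromosome 13, 110395046 to 110400844), a stress- and growth factor-induced kinase with roles at the centriole, had 18.2 and 17.9 TPM in LCDM, 56.9 and 60.5 in A2iL, 30.3 and 30.7 in 2iL-F, 14.9 and 14.03 in 2iL, and 89.5 and 86.3 in SL. All 5 conditions were separate, with SL highest and 2iL lowest, and the log2 changes against SL were -2.22 ± 0.05 (adjusted p = 1.09e-08) in LCDM and -2.52 ± 0.05 (adjusted p = 1.1e-09) in 2iL. Plk2 was also higher in 2iL-F than in 2iL, by 1.03 ± 0.05 (adjusted p = 7.17e-07), as was the fibroblast sum. Between A2iL and 2iL-F, Plk2 was higher in A2iL and the fibroblast sum in 2iL-F. The part of fibroblast RNA in Plk2 was not tested. Plk3 (chromosome 4, 117128655 to 117133963), a kinase of the stress response, had 32.9 and 34.0 TPM in LCDM, 40.0 and 37.6 in A2iL, 16.2 and 15.6 in 2iL-F, 19.2 and 19.7 in 2iL, and 44.7 and 43.7 in SL. Its lowest levels were in 2iL-F and 2iL, the MEK inhibitor media, with log2 changes of -1.42 ± 0.05 (adjusted p = 8.41e-08) and -1.14 ± 0.05 (adjusted p = 1.23e-07) against SL. Plk5 (chromosome 10, 80356459 to 80365489), a family member known from neurons, had 10.1 and 11.1 TPM in LCDM, 5.35 and 4.74 in A2iL, 1.77 and 2.05 in 2iL-F, 5.07 and 4.61 in 2iL, and 11.2 and 10.8 in SL. It was lowest in 2iL-F and did not pass the test in LCDM against SL (-0.05 ± 0.09, adjusted p = 0.646).

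**Figure D4:**
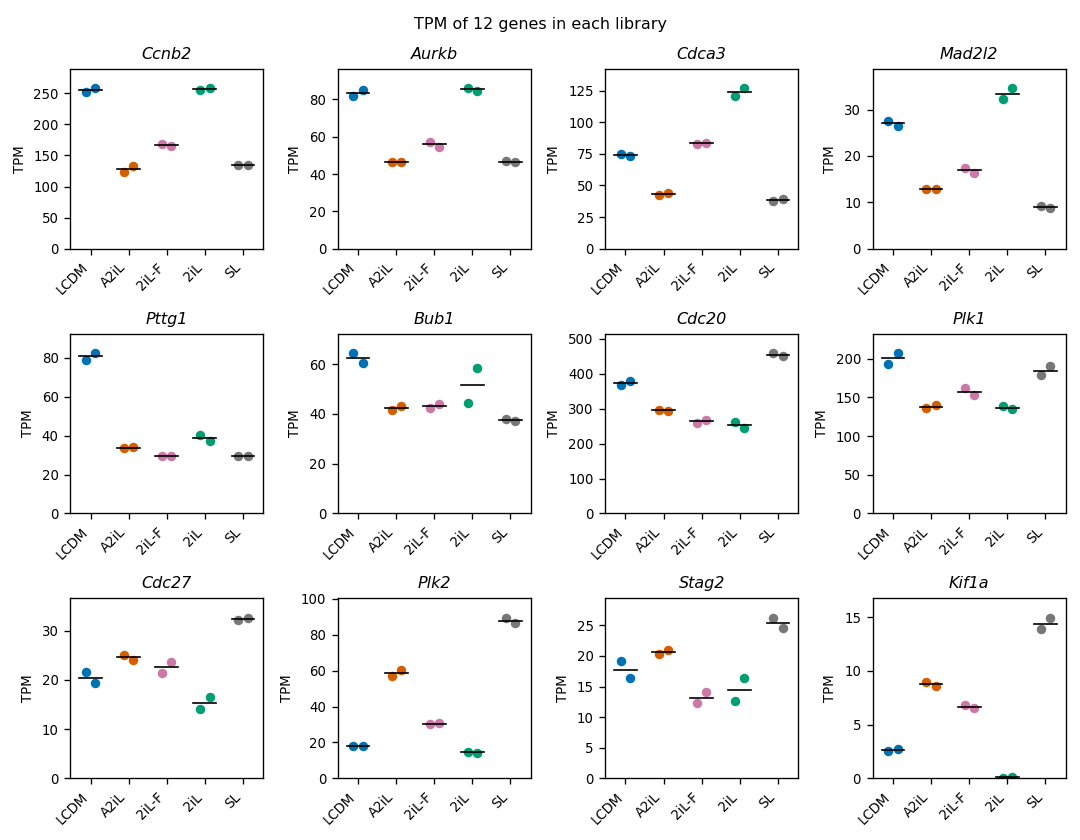
TPM (vertical axes, from 0) of 12 of the genes in each library (points) and condition mean (horizontal lines), in LCDM, A2iL, 2iL-F, 2iL and SL. Ccnb2 and Aurkb are high in LCDM and 2iL, Pttg1 in LCDM, and Plk2, Cdc27 and Kif1a in SL.

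Of the 5 checkpoint genes, 2 rose in LCDM against SL and 3 in 2iL, and 0 fell in either; with 5 genes, these counts say little beside the 32.2% and 36.7% of all lines that were higher. Bub1 (chromosome 2, 127801122 to 127831865), the kinetochore kinase that recruits the other checkpoint proteins, had 64.5 and 60.5 TPM in LCDM, 41.6 and 43.3 in A2iL, 42.3 and 43.8 in 2iL-F, 44.4 and 58.6 in 2iL, and 37.8 and 37.3 in SL. It was highest in LCDM (0.72 ± 0.11 against SL, adjusted p = 0.000402), and the 2iL libraries were far apart. Mad2l1 (chromosome 6, 66535390 to 66547220), the Mad2 protein that inhibits Cdc20, had 25.7 and 25.6 TPM in LCDM, 19.3 and 20.6 in A2iL, 21.3 and 22.2 in 2iL-F, 32.8 and 37.5 in 2iL, and 23.1 and 25.3 in SL. It rose in 2iL (0.52 ± 0.07 against SL, adjusted p = 0.000216) and did not pass the test in LCDM (0.08 ± 0.07, adjusted p = 0.366). Mad2l2 (chromosome 4, 148130384 to 148145699), a relative known mainly for DNA repair and translesion synthesis, had 27.5 and 26.5 TPM in LCDM, 12.9 and 12.8 in A2iL, 17.4 and 16.4 in 2iL-F, 32.2 and 34.6 in 2iL, and 9.18 and 8.84 in SL. All 5 conditions were separate and SL was lowest, with log2 changes of 1.48 ± 0.06 (adjusted p = 1.43e-07) in LCDM, 0.47 ± 0.06 (adjusted p = 0.000239) in A2iL, 0.84 ± 0.06 (adjusted p = 3.96e-06) in 2iL-F and 1.78 ± 0.06 (adjusted p = 1.8e-08) in 2iL.

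In LCDM against SL, 7 of 11 centromere genes rose and 0 fell, beside 32.2% and 33.7% of all lines. Without SL replicate 5, LCDM replicate 3 or LCDM replicate 5 the number is 5, since Cenpk and Cenpq, with adjusted p = 0.0287 and 0.0284 in the full fit, are then not called (adjusted p = 0.0617 to 0.178 for Cenpk and 0.0798 to 0.157 for Cenpq). Cenpa (chromosome 5, 30666777 to 30674830), the histone H3 variant that marks the centromere, had 57.9 and 53.8 TPM in LCDM, 32.8 and 33.7 in A2iL, 38.02 and 39.1 in 2iL-F, 46.1 and 55.3 in 2iL, and 37.2 and 37.2 in SL. LCDM and 2iL were above the other 3 conditions, by 0.57 ± 0.08 (adjusted p = 0.000257) and 0.43 ± 0.08 (adjusted p = 0.000984) against SL. Cenpu (chromosome 8, 46552028 to 46580007), a subunit of the inner kinetochore network, had 14.2 and 14.9 TPM in LCDM, 10.4 and 11.2 in A2iL, 13.01 and 14.8 in 2iL-F, 18.2 and 21.3 in 2iL, and 8.52 and 9.23 in SL. It was highest in 2iL, by 1.07 ± 0.09 against SL (adjusted p = 7.62e-06). Cenpi (chromosome X, 134308084 to 134362639), of the same network, rose in LCDM, with 7.496 and 6.94 TPM in LCDM, 4.90 and 4.53 in A2iL, 4.64 and 5.10 in 2iL-F, 3.98 and 4.97 in 2iL, and 3.73 and 4.45 in SL (0.69 ± 0.11 in LCDM against SL, adjusted p = 0.000598). Cenpx (chromosome 11, 120710942 to 120713738), a histone-fold protein shared with DNA repair, was the most abundant of these by mean TPM, with 76.7 and 78.2 TPM in LCDM, 66.6 and 68.9 in A2iL, 82.5 and 78.3 in 2iL-F, 86.4 and 80 in 2iL, and 55.01 and 57.5 in SL. It rose in all 4 media without serum, by 0.26 ± 0.05 in A2iL (adjusted p = 0.00321) to 0.56 ± 0.05 in 2iL (adjusted p = 1.52e-05).

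At the outer kinetochore, Spc25 (chromosome 2, 69193895 to 69206194), a subunit of the Ndc80 complex that grips microtubules, had 36.2 and 35.1 TPM in LCDM, 20.3 and 22.3 in A2iL, 23.1 and 26.1 in 2iL-F, 32.7 and 34.6 in 2iL, and 33.0 and 31.7 in SL. It was low in A2iL and 2iL-F, by -0.58 ± 0.07 (adjusted p = 0.000209) and -0.38 ± 0.07 (adjusted p = 0.00148) against SL. Cenpv (chromosome 11, 62524946 to 62539261), a centromere protein named for its part in centromere organization, had 107 and 101 TPM in LCDM, 60.8 and 57.6 in A2iL, 78.6 and 75.7 in 2iL-F, 93.7 and 87.1 in 2iL, and 66.3 and 58.0 in SL. LCDM was again highest, by 0.73 ± 0.07 against SL (adjusted p = 2.7e-05). Cenpv is counted with the outer kinetochore genes here and below, though it is a centromere protein.

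Of the 10 mitotic kinesins, 6 rose and 0 fell in LCDM against SL, beside 32.2% and 33.7% of all lines. In 2iL 6 rose and 2 fell, beside 36.7% and 40.9%. The calls of Kif20b in LCDM and of Kif4 and Kif18a in 2iL are lost when single libraries are left out. Kif2c (chromosome 4, 117159639 to 117182639), a microtubule depolymerase at centromeres, had 58.6 and 55.3 TPM in LCDM, 36.3 and 36.3 in A2iL, 39.0 and 39.2 in 2iL-F, 44.3 and 54.6 in 2iL, and 36.1 and 38.2 in SL (0.60 ± 0.09 in LCDM against SL, adjusted p = 0.000312). Its relative Kif2a (chromosome 13, 106958996 to 107022126), a depolymerase of spindle poles, had 23.3 and 21.5 TPM in LCDM, 16.3 and 17.3 in A2iL, 15.7 and 15.6 in 2iL-F, 15.2 and 18.3 in 2iL, and 24.7 and 24.3 in SL. Kif2a fell in A2iL (-0.52 ± 0.08, adjusted p = 0.000955), 2iL-F (-0.62 ± 0.08, adjusted p = 0.000227) and 2iL (-0.53 ± 0.08, adjusted p = 0.000389). Of these 3 media Kif2c passed the test in 2iL, where it rose (0.40 ± 0.09, adjusted p = 0.00267), and its changes were -0.03 ± 0.09 (adjusted p = 0.791) in A2iL and 0.07 ± 0.09 (adjusted p = 0.48) in 2iL-F. Kif24 (chromosome 4, 41390745 to 41464887), a centriolar kinesin that restrains cilium formation, had 7.18 and 7.10 TPM in LCDM, 4.38 and 4.25 in A2iL, 4.58 and 4.52 in 2iL-F, 5.08 and 5.27 in 2iL, and 2.60 and 3.12 in SL. It rose in every medium compared with SL, by 0.47 ± 0.08 in A2iL (adjusted p = 0.00139) to 1.08 ± 0.08 in LCDM (adjusted p = 5.41e-06). Kif20a (chromosome 18, 34624613 to 34633277), a kinesin of the spindle midzone and cytokinesis, had 129 and 126 TPM in LCDM, 91.2 and 92.2 in A2iL, 124 and 131 in 2iL-F, 106 and 112 in 2iL, and 125 and 124 in SL. It was low in A2iL (-0.44 ± 0.05, adjusted p = 7.69e-05) and in 2iL (-0.20 ± 0.05, adjusted p = 0.00386). Kif11 (chromosome 19, 37376403 to 37421859), which pushes spindle poles apart, had 73.8 and 65.4 TPM in LCDM, 58.2 and 58.9 in A2iL, 52.5 and 58.5 in 2iL-F, 55.2 and 65.5 in 2iL, and 59.2 and 61.5 in SL, and did not pass the F test (adjusted p = 0.0695).

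The anaphase-promoting complex and its regulators included Pttg1, which stood out in LCDM, and Cdc20, the most abundant gene of the set. Of the 13, 6 rose and 3 fell in LCDM against SL (46.2% and 23.1%), beside 32.2% and 33.7% of all lines. With 13 genes, these counts say little. Pttg1 (chromosome 11, 43420250 to 43426251), securin, which holds separase inactive until anaphase, had 78.9 and 82.4 TPM in LCDM, 33.9 and 33.9 in A2iL, 29.6 and 29.6 in 2iL-F, 40.3 and 37.3 in 2iL, and 29.4 and 29.3 in SL. LCDM stood at a ratio of 2.75 to SL and of 2.73 to 2iL-F, a log2 change of 1.43 ± 0.05 (adjusted p = 7.2e-08) against SL, while 2iL-F and SL nearly coincided (0.01 ± 0.05, adjusted p = 0.874). Cdc20 (chromosome 4, 118432901 to 118437352), the activator of the complex, had 367 and 380.3 TPM in LCDM, 297 and 294 in A2iL, 259.6 and 267 in 2iL-F, 261 and 244 in 2iL, and 459.7 and 450.3 in SL. SL was highest and LCDM next, and all 4 media without serum were lower, by 0.28 ± 0.05 (adjusted p = 0.000609) in LCDM to 0.85 ± 0.05 (adjusted p = 3.4e-07) in 2iL. Its promoter window holds CHR and CCAAT matches, as that of Ccnb2 does. Cdc27 (chromosome 11, 104502745 to 104550620), a scaffold subunit, had 21.7 and 19.3 TPM in LCDM, 25.1 and 24.1 in A2iL, 21.4 and 23.7 in 2iL-F, 14.05 and 16.5 in 2iL, and 32.1 and 32.7 in SL. It was lower in all 4, by 0.38 ± 0.09 in A2iL (adjusted p = 0.00626) to 1.04 ± 0.09 in 2iL (adjusted p = 6.84e-06).

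The 3 cohesin genes each had a pattern of their own. Rad21 (chromosome 15, 51962240 to 51991747), the subunit that closes the cohesin ring and is cut by separase, had 168 and 161 TPM in LCDM, 128 and 135 in A2iL, 155 and 160.1 in 2iL-F, 144 and 159 in 2iL, and 126 and 133 in SL. It rose in LCDM (0.34 ± 0.06, adjusted p = 0.00101) and 2iL-F (0.28 ± 0.06, adjusted p = 0.00316). Its call in 2iL (0.22 ± 0.06, adjusted p = 0.00845) is lost without SL replicate 3 (adjusted p = 0.0603). Stag2 (chromosome X, 42149317 to 42277185), an accessory subunit of the ring, had 19.1 and 16.4 TPM in LCDM, 20.3 and 21.0 in A2iL, 12.3 and 14.1 in 2iL-F, 12.6 and 16.4 in 2iL, and 26.2 and 24.6 in SL. SL was above all the others, with log2 changes of -0.90 ± 0.12 (adjusted p = 0.000244) in 2iL-F and -0.78 ± 0.12 (adjusted p = 0.000384) in 2iL. In LCDM its change was -0.50 ± 0.12 (adjusted p = 0.00678, and 0.0517 without LCDM replicate 5). Smc3 (chromosome 19, 53600398 to 53645833), a ring subunit, had 83.3 and 78.5 TPM in LCDM, 68.4 and 70.9 in A2iL, 61.8 and 67.8 in 2iL-F, 70.9 and 78.8 in 2iL, and 78.1 and 75.0 in SL. Its call in 2iL-F against SL (-0.24 ± 0.07, adjusted p = 0.013) is lost without SL replicate 3 (adjusted p = 0.0741) or 2iL-F replicate 3 (adjusted p = 0.0979).

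Among 8 condensin and Smc5/6 genes, 5 rose and 0 fell in LCDM against SL, beside 32.2% and 33.7% of all lines. Fewer rose when SL replicate 3, SL replicate 5 or LCDM replicate 3 was left out. The call of Smc4 is also lost without the TPM filter and without 2iL-F replicate 3. Ncaph (chromosome 2, 127103809 to 127133954), the kleisin of condensin I, had 47.7 and 42.8 TPM in LCDM, 29.7 and 29.0 in A2iL, 32.1 and 31.99 in 2iL-F, 40.6 and 44.8 in 2iL, and 27.9 and 28.5 in SL. LCDM and 2iL were again the high pair, by 0.66 ± 0.07 (adjusted p = 3.22e-05) and 0.58 ± 0.07 (adjusted p = 4.49e-05) against SL. Ncaph2 (chromosome 15, 89355719 to 89372826), its condensin II counterpart, had 128 and 129 TPM in LCDM, 100.3 and 98.4 in A2iL, 104 and 104 in 2iL-F, 113 and 108 in 2iL, and 83.6 and 86.4 in SL. SL was lowest and all 4 other media higher, by 0.22 ± 0.04 in A2iL (adjusted p = 0.00211) to 0.59 ± 0.04 in LCDM (adjusted p = 3.83e-06).

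The 4 Cdca genes share a name (cell division cycle associated) rather than a function. Cdca3 (chromosome 6, 124829547 to 124833701), a partner in the destruction of the mitotic inhibitor Wee1, had 75.2 and 73.1 TPM in LCDM, 42.3 and 43.9 in A2iL, 83.1 and 83.3 in 2iL-F, 121 and 127 in 2iL, and 37.95 and 39.5 in SL. It was high in both MEK inhibitor media, with log2 changes of 1.08 ± 0.05 (adjusted p = 1.86e-07) in 2iL-F and 1.65 ± 0.05 (adjusted p = 6.02e-09) in 2iL, and 0.92 ± 0.05 (adjusted p = 5.13e-07) in LCDM. Cdca5 (chromosome 19, 6084983 to 6091777), sororin, which stabilizes cohesin on sister chromatids, had 105 and 107 TPM in LCDM, 77.2 and 83.7 in A2iL, 82.6 and 77.3 in 2iL-F, 81.7 and 83.1 in 2iL, and 83.0 and 81.8 in SL. LCDM alone stood apart, by 0.36 ± 0.05 (adjusted p = 0.000344) against SL. Cdca7l (chromosome 12, 117804289 to 117878706), a Myc-interacting nuclear protein, had 20.6 and 20.2 TPM in LCDM, 16.1 and 18.0 in A2iL, 8.72 and 8.07 in 2iL-F, 12.51 and 14.2 in 2iL, and 24.0 and 27.6 in SL. It fell most in 2iL-F (-1.51 ± 0.09, adjusted p = 1.41e-06) and 2iL (-0.90 ± 0.09, adjusted p = 1.98e-05).

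The 12 other kinesins were mostly highest in SL. Kif1a (chromosome 1, 93015464 to 93101951), a motor of synaptic vesicle precursors in neurons, had 2.58 and 2.69 TPM in LCDM, 8.94 and 8.61 in A2iL, 6.86 and 6.51 in 2iL-F, 0.0376 and 0.115 in 2iL, and 13.9 and 15.0 in SL. All 5 conditions were separate and 2iL was near 0, with a log2(TPM + 1) change of -3.84 ± 0.08 (adjusted p = 8.51e-10) there and -2.08 ± 0.08 (adjusted p = 8.82e-08) in LCDM. The 2iL libraries were also those with the lowest fibroblast sum. Between A2iL and 2iL-F the orders differed, with Kif1a higher in A2iL and the fibroblast sum higher in 2iL-F. What part fibroblast RNA has in Kif1a was not tested. Kif26a (chromosome 12, 112146208 to 112181747), a kinesin-like signalling protein without motor activity, had 7.86 and 7.604 TPM in LCDM, 2.28 and 2.81 in A2iL, 0.400 and 0.581 in 2iL-F, 1.15 and 1.10 in 2iL, and 4.42 and 4.81 in SL. It was the opposite of Kif1a in LCDM, where it was highest (0.64 ± 0.10 against SL, adjusted p = 0.00064). In 2iL-F it was lowest (-1.91 ± 0.10, adjusted p = 7.44e-07). Kif5b (chromosome 18, 6201002 to 6242174), the widely expressed conventional kinesin heavy chain, was the most abundant of the 12, with 63.5 and 59.1 TPM in LCDM, 73.3 and 74.6 in A2iL, 68.4 and 71.7 in 2iL-F, 42.4 and 52.5 in 2iL, and 71.5 and 72.4 in SL. It was lower in 2iL than in SL by 0.60 ± 0.09 on the log2 scale (adjusted p = 0.000258). Of the 12, Kif17, Kif26b, Kif1a and Kif26a reached 1 TPM in fewer than 5 conditions.

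Under 1 medium with opposite feeder labels, 13 of the 81 genes were higher and 39 lower in 2iL-F than in 2iL, beside 29.2% of all lines higher and 32.5% lower (61.7% in all), with a median change of -0.15 beside -0.02. For the 69 division genes the counts were 8 and 35, and for the 12 other kinesins 5 and 4. Ccnb2 was lower in 2iL-F by 0.61 ± 0.04 (adjusted p = 5.02e-06), Aurkb by 0.60 ± 0.04 (adjusted p = 5.76e-06), Mad2l2 by 0.94 ± 0.06 (adjusted p = 2.46e-06) and Mad2l1 by 0.67 ± 0.07 (adjusted p = 8.17e-05). Higher in 2iL-F were Plk2, Cdc27 (0.54 ± 0.09, adjusted p = 0.000824) and Kif1a (2.84 ± 0.08, adjusted p = 1.36e-08). All 32 fibroblast transcripts were higher in 2iL-F and 0 lower, with Col1a1 at 1058 and 974 TPM in 2iL-F, against 0.2 and 0.264 TPM in 2iL. Their part in these counts was not tested.

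LCDM and 2iL-F share medium, LIF and Chir99021, and differ in Dim and Mih against PD0325901 and in the feeder label. Between them 52 of the 81 genes were higher and 8 lower in LCDM, beside 32.3% of all lines higher and 27.2% lower (59.5% in all), with a median change of 0.31 beside 0.05. For the division genes the counts were 48 and 4. By role, 4 of 4 cyclins and phosphatases, with Cdc25a among them, 6 of 7 Aurora and Polo-like kinases, 7 of 11 centromere genes, 8 of 10 mitotic kinesins, 6 of 13 genes of the anaphase-promoting complex group and 3 of 4 outer kinetochore genes rose. The call of Cdc25a (0.15 ± 0.05, adjusted p = 0.0362) is lost with median-of-ratios scaling (adjusted p = 0.337), with quantile normalization, with only the 4 libraries compared, with the replicate block (adjusted p = 0.0539), and without SL replicate 3 or 5, A2iL replicate 3 or 5, LCDM replicate 5 (adjusted p = 0.223), or 2iL-F replicate 3 or 5, which leaves 3 of 4. Of the 8 condensin and Smc5/6 genes 6 rose, and 3 did without LCDM replicate 3 or 2iL-F replicate 3. Counts of other roles also rest on calls that depend on single libraries. The calls of Anapc1, Anapc5, Cenpc1, Cenpo, Kif4, Kif11 and Nuf2 are each lost without some LCDM or 2iL-F library. Of these, Kif11 (as given above) and Cenpc1 (adjusted p = 0.113) did not pass the F test. The largest increases were in Kif26a (2.55 ± 0.10, adjusted p = 2.75e-07), Plk5 (1.99 ± 0.09, adjusted p = 4.95e-07) and Pttg1 (1.42 ± 0.05, adjusted p = 1.37e-07). Kif1a (-1.08 ± 0.08, adjusted p = 6.76e-06) and Plk2 (-0.73 ± 0.05, adjusted p = 7.79e-06) fell. Of the fibroblast transcripts 0 rose and 29 fell in LCDM, and their part was not tested.

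A2iL and 2iL-F differ in CGP77675 against PD0325901 and in the feeder label. In A2iL 12 of the 81 genes were higher and 20 lower (14.8% and 24.7%), beside 22.2% of all lines higher and 23.0% lower (45.3% in all). The medians were -0.01 and 0.01. The share that was lower is near the background, and the share that was higher is below it. Cdca3 (-0.93 ± 0.05, adjusted p = 1.21e-06), Ccnb2 (-0.38 ± 0.04, adjusted p = 0.000155) and Kif20a (-0.47 ± 0.05, adjusted p = 5.75e-05) fell in A2iL. Plk3 (1.24 ± 0.05, adjusted p = 5.07e-07), Kif26a (1.25 ± 0.10, adjusted p = 2.24e-05), Plk5 (1.05 ± 0.09, adjusted p = 2.62e-05) and Cdca7l (0.94 ± 0.09, adjusted p = 5.33e-05) rose. Of the fibroblast transcripts 11 rose and 17 fell, and their part was not tested.

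Other genes of the pathway, a list of 73 known mitosis genes that the symbols above do not take, also mostly rose in LCDM. Against SL, 49 rose and 4 fell in LCDM (67.1% and 5.48%), beside 32.2% and 33.7% of all lines. In 2iL 38 rose and 14 fell (52.1% and 19.2%), beside 36.7% and 40.9%. In 2iL-F 33 rose and 11 fell (45.2% and 15.1%), beside 28.1% and 37.3%. In A2iL 18 rose and 14 fell (24.7% and 19.2%), beside 21.9% and 31.9%, so the share that rose is near the background. The sum of the 73 genes was 3491 ± 72.1 TPM in LCDM, 2738 ± 4.98 in A2iL, 2962 ± 9.06 in 2iL-F, 3218 ± 155 in 2iL and 2711 ± 14.9 in SL (SD, n = 2 each). Here SL and not A2iL was the lowest. The largest increases in LCDM were in Smc1b (2.33 ± 0.11, adjusted p = 3.42e-07), the meiotic cohesin subunit, at 6.39 and 6.80 TPM in LCDM, against 0.493 and 0.523 TPM in SL, and in Pimreg (1.24 ± 0.08, adjusted p = 1.81e-06), Cep55 (1.16 ± 0.09, adjusted p = 5.23e-06), a protein of the final cut between daughter cells, and Kntc1 (1.15 ± 0.08, adjusted p = 2.81e-06), a kinetochore checkpoint protein. In 2iL-F against 2iL, 9 rose and 26 fell, and 22 in all were called without 2iL-F replicate 5. In LCDM against 2iL-F, 42 rose and 6 fell, and 26 in all were called without LCDM replicate 3 and 30 without 2iL-F replicate 3. In A2iL against 2iL-F, 3 rose and 21 fell. Of all lines, 29.2% were higher and 32.5% lower in 2iL-F against 2iL, and 32.3% and 27.2% in LCDM against 2iL-F. For A2iL against 2iL-F these shares were 22.2% and 23.0%.

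Genes of DNA replication and S phase and those that restrain or time the cycle are given beside these. Of 38 S phase genes, 26 rose and 2 fell in LCDM against SL (68.4% and 5.26%). In 2iL 23 rose and 5 fell (60.5% and 13.2%), and in 2iL-F 21 and 3 (55.3% and 7.89%). In A2iL 5 rose and 11 fell, and 10 in all were called without A2iL replicate 5. The A2iL shares of S phase genes against SL were 13.2% and 28.9%, neither above the share of all lines. In A2iL against 2iL-F, 0 of the 38 rose and 22 fell (0% and 57.9%), beside 22.2% and 23.0% of all lines. Of 15 genes that restrain or time the cycle, 4 rose and 8 fell in LCDM against SL, 4 and 7 in A2iL, 7 and 5 in 2iL-F, and 8 and 6 in 2iL. This list also holds the D-type cyclin Ccnd2, so its counts are not those of inhibitors alone. Of all lines, 32.2% were higher and 33.7% lower in LCDM, and 21.9% and 31.9% in A2iL. The shares were 28.1% and 37.3% in 2iL-F, and 36.7% and 40.9% in 2iL. Cdkn1a, the cyclin-dependent kinase inhibitor p21, had 167 and 179 TPM in LCDM, 518 and 529 in A2iL, 582 and 583 in 2iL-F, 465 and 401 in 2iL, and 484 and 489 in SL, and its log2 change in LCDM against SL was -1.49 ± 0.07 (adjusted p = 2.84e-07). LCDM was alone in its low level of this gene. Ccnd2, a D-type cyclin of the G1 phase, had 8.38 and 7.38 TPM in LCDM, 28.8 and 29.4 in A2iL, 19.5 and 20.1 in 2iL-F, 0.0932 and 0.035 in 2iL, and 79.2 and 85.2 in SL. All 5 conditions were separate, and Ccnd2 was lower than in SL in each, with log2(TPM + 1) changes of -3.23 ± 0.07 (adjusted p = 8.42e-09) in LCDM, -1.47 ± 0.07 (adjusted p = 1.06e-06) in A2iL, -2.00 ± 0.07 (adjusted p = 7.96e-08) in 2iL-F and -6.29 ± 0.07 (adjusted p = 4.18e-11) in 2iL. The fibroblast sum was likewise lowest in 2iL, next in LCDM and highest in SL. Between A2iL and 2iL-F the orders differed, with Ccnd2 higher in A2iL and the fibroblast sum higher in 2iL-F. The part of fibroblast RNA in Ccnd2 was not tested.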

How the data were processed

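RNA of 10 libraries, 2 for each of 5 culture conditions, was analysed from 1 table of 20494 lines. The deposited values are TPM, made by the authors; per the submitters' processing notes, Bowtie2, RSEM, R 3.4.2, DESeq2 and mm10 were used. TPM keep no read number, so depth and the precision it gives are unknown; a library's listed values hold 71.0% to 73.0% of the total that TPM refers to. Symbols stand beside their own values in the first 9865 rows: there 99.5% of 186 members of broadly expressed families and 0% of 14 of tissue-restricted families had at least 5 TPM. Genes are named from those rows only. Lines with at least 1 TPM in at least 2 libraries (14578, of which 7962 could be named) were fitted as log2(TPM + 1) by limma (3.58.1, run under R 4.3.3; eBayes used its trend option), a mean per condition and no covariate. Log2 changes are on that scale and understate changes of low genes. Tests were two-sided, with Benjamini-Hochberg adjustment over all 14578 lines within each of 7 comparisons and the F test; a gene is called at an adjusted p below 0.05. The steps were tested on simulated data. Members and gene lists were chosen with earlier results of these data known. Full values are given per role to the 2 genes with the largest change against SL (F test called, at least 5 TPM in a condition), to the most abundant gene and to a set list of well-known genes; up to 4 genes of a comparison list are named by size of change. Plk3 and Kif2c were added after their values were seen. Alternatives were another pseudocount, filters, scalings, the libraries used, a replicate block and leaving out each library. Gene positions are from GENCODE vM21 and promoter windows from RefSeq; figures were drawn with matplotlib 3.10.9.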

Additional observations from a re-analysis of the deposited data

How the results depend on the processing

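No call of any of the 81 genes reversed under the alternatives run. Of 338 calls of single genes in the 7 comparisons, 248 held under every alternative that tested them. The filter of 5 TPM tested 79 of the 81 genes. With all other settings than leaving out a library, the number of the 81 genes called was 53 to 61 in LCDM against SL, 32 to 41 in A2iL, 43 to 48 in 2iL-F and 49 to 62 in 2iL, 42 to 53 in 2iL-F against 2iL, 57 to 63 in LCDM and 30 to 38 in A2iL against 2iL-F. Leaving out 1 library gave 47 to 61, 25 to 41, 36 to 49, 52 to 58, 41 to 58, 47 to 63 and 22 to 39 in that order. The 73 other mitosis genes gave 20 calls in 2iL-F against 2iL with only the 4 libraries compared (35 in the full fit), 22 to 44 without 1 library, and 26 to 50 in LCDM against 2iL-F (48 in the full fit). S phase genes called without 1 library numbered 14 to 29 in A2iL against 2iL-F and 10 to 18 against SL. Of the 10 ES cell genes, 5 were called in LCDM against 2iL-F with median-of-ratios scaling (8 in the full fit); without 1 library 5 to 8 were, and 5 to 9 in 2iL-F against 2iL. The causes were not tested.

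The replicate numbers did not pair the libraries: deviations of same-numbered libraries from their condition means correlated at -0.131 to 0.0746. With the replicate block 54 genes were called in LCDM, 33 in A2iL, 44 in 2iL-F and 58 in 2iL against SL, 48 in 2iL-F against 2iL, and 58 in LCDM and 31 in A2iL against 2iL-F. The median change of all lines moved by less than 0.1 under each scaling. With 2 libraries a condition and no read numbers, depth limits cannot be given.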
